A study of Mus musculus with 14 samples.

Results

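Dusp1, Dusp2, Dusp4, Dusp5, Dusp6, Dusp10, Spry1 and Spry2 are 8 mouse genes whose products switch MAP kinase signalling down. They were taken by symbol from a table of 25017 genes counted in donor CD4+ T cells of transplanted mice with or without chronic graft-versus-host disease (cGVHD), and all 8 were among the 13780 genes expressed highly enough to be tested. The data are bulk RNA sequencing counts of 14 libraries, in 7 groups of 2. The hosts were BALB/C mice that had been given T-cell-depleted bone marrow from B6 donors, and cells were taken 30 days after the transplant. Donor CD4+ T cells (strain C57BL/6 in the labels) were sorted by surface PSGL1, a selectin ligand encoded by Selplg, into a PSGL1lo and a PSGL1hi fraction. In recipients with cGVHD, which had been given donor splenocytes with the marrow, the groups are lung PSGL1lo, lung PSGL1hi, liver PSGL1lo, liver PSGL1hi, spleen PSGL1lo and spleen PSGL1hi. The remaining group is spleen PSGL1lo of GVHD-free recipients, given marrow without splenocytes, so that disease and the makeup of the graft cannot be told apart.

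MAP kinases (ERK, JNK and p38) carry signals from the T cell receptor and cytokine receptors to the nucleus, where they induce immediate early genes such as Fos and Egr1. The same signals induce the dual-specificity phosphatases (Dusp genes), which remove the activating phosphates from MAP kinases, and the Sprouty proteins (Spry genes), which act further upstream on the path from receptors to Ras and ERK. Transcripts of these feedback genes are therefore widely used as readouts of recent or sustained MAP kinase activity, although a transcript level is not a measure of kinase activity.

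Whether libraries of 1 group stem from separate mice is not stated in the labels, and p-values therefore measure only the spread between these libraries, which can be technical. Libraries held 13222005 to 33532595 counts. Levels are given as CPM, read counts scaled to library size, after TMM scaling, which corrects for differences in library makeup; they are not scaled by gene length and are not compared between genes. Summed levels of 4 T cell genes (Cd3e, Cd3g, Cd4 and Cd28) lay between 3272 and 3591 CPM in the spleen groups. In the liver and lung groups they lay between 5297 and 6055 CPM. Selplg was lower in PSGL1lo than in PSGL1hi cells in each tissue, with log2 changes of −1.19, −0.68 and −0.96 in lung, liver and spleen, which goes with the labels of the sort. In bulk samples, fewer cells of a type and less RNA per cell cannot be told apart. The library numbers in the labels form 1 run for spleen and another for liver and lung, so that where spleen is set against liver or lung, tissue cannot be told apart from library series. Counts of Dusp1, Dusp5, Dusp10 and Spry1 carry an added uncertainty, because each overlaps an annotated gene on the opposite strand (Ergic1 and Gm8225, AC137853.2, 1700056E22Rik and Gm42922) and the sources used here do not give the strand setting of the counting. Dusp1 also overlaps AC122252.4 and AC122252.1 on its own strand, whatever that setting.

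The promoters of Dusp1, Dusp2 and Dusp5 are shown because each holds a recognition sequence of a factor that MAP kinase or calcium signals act on. Sequences run from 250 bases before to 50 bases after the gene's start, 5′ to 3′ along the gene, from RefSeq on GRCm38.p6; 7 of the 8 genes had an entry. Capitals mark the motif. The Dusp1 window is chr17:26508423-26508722 on the minus strand, with a complete cyclic AMP response element, TGACGTCA, 143 bases before the start. The Dusp2 window is chr2:127335909-127336208 on the plus strand, with an Egr site, GCGNGGGCG, 98 bases before the start. The Dusp5 window is chr19:53528895-53529194 on the plus strand, with a pair of adjoining CArG boxes, the core of the serum response element, 82 and 72 bases before the start.
Dusp1: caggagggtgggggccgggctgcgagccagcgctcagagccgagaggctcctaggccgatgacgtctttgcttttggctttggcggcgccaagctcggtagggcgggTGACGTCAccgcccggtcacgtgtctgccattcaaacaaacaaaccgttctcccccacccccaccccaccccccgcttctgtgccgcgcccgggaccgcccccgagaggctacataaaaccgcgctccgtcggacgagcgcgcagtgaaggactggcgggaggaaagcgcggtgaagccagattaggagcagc
Dusp2: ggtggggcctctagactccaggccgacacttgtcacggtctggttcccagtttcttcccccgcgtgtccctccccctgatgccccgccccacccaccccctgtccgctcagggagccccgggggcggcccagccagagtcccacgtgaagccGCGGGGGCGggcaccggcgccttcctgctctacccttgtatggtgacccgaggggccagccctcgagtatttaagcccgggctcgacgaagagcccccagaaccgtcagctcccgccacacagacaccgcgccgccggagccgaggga
Dusp5: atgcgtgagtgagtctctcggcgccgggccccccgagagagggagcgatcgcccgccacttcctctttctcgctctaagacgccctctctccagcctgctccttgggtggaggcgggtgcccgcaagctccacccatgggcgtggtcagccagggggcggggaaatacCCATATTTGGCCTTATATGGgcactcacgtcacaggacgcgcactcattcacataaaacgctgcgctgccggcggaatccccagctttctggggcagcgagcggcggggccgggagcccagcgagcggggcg
Both strands of all 32851 promoter windows in the RefSeq table were searched. The complete cyclic AMP element was found in 1.79% of them, the Egr site in 5.55% and a CArG box in 1.63%. Among the 7 windows the shorter element TGACGT, found in 7.51% of all windows, lies in those of Dusp1, within the complete element and again 191 bases before the start, and Dusp5, and the E-box CACGTG, found in 7.15%, in those of Dusp1 and Dusp2. None of the 7 holds an AP-1 site TGANTCA (7.81% of all windows), a TATA box TATAAA (13.6%) or the NFAT core TGGAAA (21.4%). A match is a description of these letters in this window.

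The first comparison sets PSGL1lo against PSGL1hi CD4+ T cells of cGVHD recipients in lung, liver and spleen, which share no libraries. The feedback genes did not move as a block. Spry1 was higher and Dusp5 and Spry2 were lower in PSGL1lo cells of all 3 tissues, whereas Dusp2 and Dusp10 were lower in PSGL1lo cells of the lung and not in those of the other tissues. Calls rest on edgeR's quasi-likelihood test, adjusted by the Benjamini-Hochberg method over all genes, at an adjusted p under 0.05. In lung 6 of the 8 genes changed (2 higher and 4 lower), where 33% of all genes did (12.9% higher and 20.1% lower). In liver 7 changed (5 higher and 2 lower), against 20.8% of all genes (8.5% higher and 12.3% lower). Without the first liver PSGL1hi library, fewer of the 8 and fewer of all genes changed. In spleen 5 changed (3 higher and 2 lower), against 32.5% of all genes (15.8% higher and 16.7% lower). Genes higher in PSGL1lo cells of all 3 tissues made up 12.5% of the 8 (Spry1) and 3.77% of all genes tested, and genes lower in all 3 made up 25% of the 8 (Dusp5 and Spry2) and 6.25% of all.

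**Figure D1:**
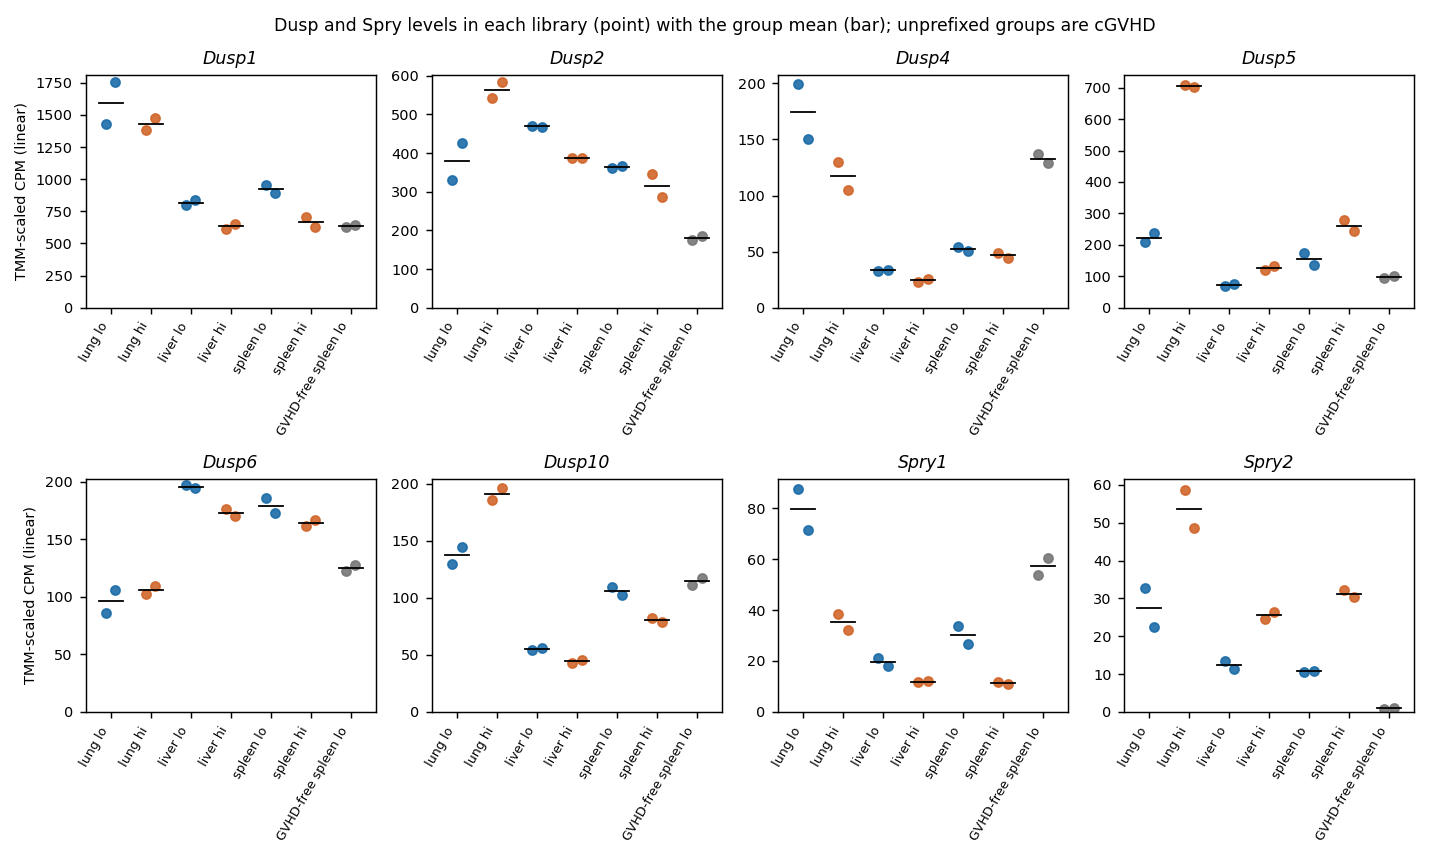
TMM-scaled CPM on linear axes that start at 0, for each of the 8 genes, with 1 point per library and a bar at the mean of the 2 libraries of each group. PSGL1lo libraries are blue, PSGL1hi libraries orange and GVHD-free libraries grey; Dusp5 in lung PSGL1hi libraries (704 and 709.7 CPM) stands above every other group, and Spry2 is near 1 CPM in GVHD-free libraries.

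Spry1 encodes a Sprouty protein that restrains signalling from growth factor receptors and, in T cells, from the T cell receptor. It had 87.6 and 71.4 CPM in lung PSGL1lo libraries, against 38.3 and 32.0 CPM in lung PSGL1hi libraries. Liver PSGL1lo libraries had 21.1 and 17.98 CPM, and liver PSGL1hi libraries 11.6 and 12.1 CPM. Spleen PSGL1lo libraries had 33.9 and 26.8 CPM, and spleen PSGL1hi libraries 11.8 and 10.9 CPM. In each tissue both PSGL1lo libraries lay above both PSGL1hi libraries. The log2 change was 1.18 ± 0.12 in lung, 0.72 ± 0.14 in liver and 1.41 ± 0.14 in spleen (± SE, edgeR; adjusted p = 1.4e-07, 0.000575 and 1.42e-07). The change in liver was smaller than that in spleen, with a log2 difference of −0.69 ± 0.20 (adjusted p = 0.0417), a call that was lost with only the groups compared (adjusted p = 0.0591) and in 6 of the 8 fits that each left out 1 liver or spleen library (adjusted p = 0.0546 to 0.189). It held without the first liver PSGL1lo library and without the second spleen PSGL1lo library.

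Spry2, which encodes a related Sprouty protein, moved the other way. It had 32.7 and 22.5 CPM in lung PSGL1lo libraries, against 58.7 and 48.5 CPM in lung PSGL1hi libraries. In liver, PSGL1lo libraries had 13.4 and 11.4 CPM, and liver PSGL1hi libraries 24.6 and 26.5 CPM. In spleen, PSGL1lo libraries had 10.7 and 10.8 CPM, and spleen PSGL1hi libraries 32.1 and 30.3 CPM. Both PSGL1lo libraries lay below both PSGL1hi libraries in every tissue. Spry2 fell by 0.96 ± 0.14 in lung, 1.03 ± 0.15 in liver and 1.54 ± 0.16 in spleen on the log2 scale (adjusted p = 1.29e-05, 2.41e-05 and 2.29e-07). The differences between these changes did not pass the test (adjusted p = 0.0685 for lung minus spleen, 0.185 for liver minus spleen and 0.901 for lung minus liver), so a difference between tissues was not shown. That for lung minus spleen, 0.58 ± 0.21, passed the test when weakly expressed genes were kept in (adjusted p = 0.0153) and without the second lung PSGL1lo library (0.87, adjusted p = 0.00487).

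Dusp5 encodes a nuclear phosphatase that acts on ERK and not on JNK or p38. It had 209 and 236 CPM in lung PSGL1lo libraries, against 709.7 and 704 CPM in lung PSGL1hi libraries. The liver PSGL1lo libraries had 70.1 and 75.1 CPM, and liver PSGL1hi libraries 119 and 132 CPM. The spleen PSGL1lo libraries had 173 and 137 CPM, and spleen PSGL1hi libraries 279 and 243 CPM. The fractions did not overlap in any tissue, and the gap was widest in lung. Dusp5 fell by 1.67 ± 0.10 in lung, 0.79 ± 0.10 in liver and 0.76 ± 0.10 in spleen on the log2 scale (adjusted p = 2.22e-11, 3.92e-06 and 3.25e-06). The fall in lung exceeded that in liver, with a log2 difference of −0.87 ± 0.14 (adjusted p = 0.000246), and that in spleen, with a log2 difference of −0.91 ± 0.13 (adjusted p = 6.32e-05).

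Dusp6 encodes the cytoplasmic counterpart of Dusp5, which is likewise selective for ERK. It had 85.8 and 106 CPM in lung PSGL1lo libraries, against 103 and 109.6 CPM in lung PSGL1hi libraries. Liver PSGL1lo libraries had 197 and 194 CPM, and liver PSGL1hi libraries 176 and 169.9 CPM. Spleen PSGL1lo libraries had 186 and 173 CPM, and spleen PSGL1hi libraries 161 and 167 CPM. The fractions overlapped in lung and lay close together without overlap in liver and spleen. None of the 3 changes passed the test, with log2 values of −0.15 ± 0.09, 0.18 ± 0.08 and 0.13 ± 0.08 in lung, liver and spleen (adjusted p = 0.208, 0.143 and 0.26). Differences between tissues did not pass either. They were −0.27 ± 0.12 for lung minus spleen and −0.32 ± 0.12 for lung minus liver (adjusted p = 0.13 each). Leaving out 1 library gave −0.39 to −0.13 and −0.46 to −0.18. Without the second lung PSGL1lo library the value in lung was −0.26 and passed the test (adjusted p = 0.0387).

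Dusp2 (PAC-1) encodes a nuclear phosphatase of haematopoietic cells that is induced on T cell activation. It had 331 and 427 CPM in lung PSGL1lo libraries, against 542 and 583 CPM in lung PSGL1hi libraries. In liver, PSGL1lo libraries had 469.8 and 468 CPM, and liver PSGL1hi libraries 387 and 388 CPM. In spleen, PSGL1lo libraries had 362 and 365 CPM, and spleen PSGL1hi libraries 345 and 286 CPM. PSGL1lo libraries were the lower ones in lung and the higher ones in liver and spleen, without overlap in any tissue. Dusp2 fell by 0.57 ± 0.09 on the log2 scale in lung (adjusted p = 6.33e-05). In liver it rose by 0.28 ± 0.09 (adjusted p = 0.0418), a call that was lost when any 1 of the 4 liver libraries was left out (adjusted p = 0.0653 to 0.176). In spleen the value was 0.20 ± 0.10 (adjusted p = 0.107), and it passed without the first spleen PSGL1hi library (0.35, adjusted p = 0.0195) and when weakly expressed genes were kept in (adjusted p = 0.0363). The change in lung differed from that in liver by −0.85 ± 0.13 (adjusted p = 0.000283) and from that in spleen by −0.78 ± 0.13 (adjusted p = 0.000345).

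Dusp10 (MKP-5) encodes a phosphatase that prefers JNK and p38 over ERK. It had 129 and 145 CPM in lung PSGL1lo libraries, against 186 and 197 CPM in lung PSGL1hi libraries. The liver PSGL1lo libraries had 54.8 and 55.7 CPM, and liver PSGL1hi libraries 43.2 and 45.5 CPM. The spleen PSGL1lo libraries had 109.5 and 103 CPM, and spleen PSGL1hi libraries 82.1 and 78.9 CPM. As with Dusp2, PSGL1lo cells were lower in lung and higher in liver and spleen, with no overlap between the fractions. Dusp10 fell by 0.48 ± 0.08 on the log2 scale in lung and rose by 0.31 ± 0.08 in liver and 0.40 ± 0.08 in spleen (adjusted p = 3.35e-05, 0.0068 and 0.000477). The rise in liver was lost without the first liver PSGL1hi library (0.28, adjusted p = 0.0976). The change in lung differed from that in liver by −0.79 ± 0.11 (adjusted p = 7.49e-05) and from that in spleen by −0.88 ± 0.11 (adjusted p = 8.14e-06).

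Dusp1 (MKP-1), the immediate early phosphatase that acts mainly on p38 and JNK, had 1426 and 1757 CPM in lung PSGL1lo libraries, against 1383 and 1475 CPM in lung PSGL1hi libraries. In liver, PSGL1lo libraries had 797 and 835 CPM, and liver PSGL1hi libraries 615 and 647 CPM. In spleen, PSGL1lo libraries had 958 and 896 CPM, and spleen PSGL1hi libraries 708 and 625 CPM. The fractions overlapped in lung and did not in liver and spleen. Dusp1 rose by 0.37 ± 0.08 in liver and 0.48 ± 0.08 in spleen on the log2 scale (adjusted p = 0.00275 and 0.000147). In lung the value was 0.16 ± 0.08 (adjusted p = 0.163), and without the first lung PSGL1lo library it was 0.29 (adjusted p = 0.0154). The differences between the tissues did not pass the test (adjusted p = 0.0684 for lung minus spleen, where the log2 difference was −0.32 ± 0.12). That difference passed by DESeq2 (adjusted p = 0.0418) and when weakly expressed genes were kept in (adjusted p = 0.0111). With 1 library left out it lay between −0.43 and −0.18.

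Dusp4 (MKP-2), a nuclear phosphatase of ERK and JNK, had 199 and 150.2 CPM in lung PSGL1lo libraries, against 129.8 and 105 CPM in lung PSGL1hi libraries. The liver PSGL1lo libraries had 33.0 and 33.6 CPM, and liver PSGL1hi libraries 23.0 and 25.6 CPM. The spleen PSGL1lo libraries had 54.3 and 50.7 CPM, and spleen PSGL1hi libraries 49.2 and 44.1 CPM. PSGL1lo libraries were above PSGL1hi libraries in all 3 tissues, by a small margin in spleen. Dusp4 rose by 0.57 ± 0.11 in lung and 0.45 ± 0.12 in liver on the log2 scale (adjusted p = 0.000325 and 0.0111), and the value in spleen was 0.17 ± 0.12 (adjusted p = 0.301). Differences between tissues did not pass the test (adjusted p = 0.10 for lung minus spleen, where the log2 difference was 0.40 ± 0.16). That difference passed when weakly expressed genes were kept in (adjusted p = 0.0179). With 1 library left out it lay between 0.18 and 0.64. The rise in lung was 0.35 without the first lung PSGL1lo library, and that in liver was lost without the first liver PSGL1hi library (0.38, adjusted p = 0.133).

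**Figure D2:**
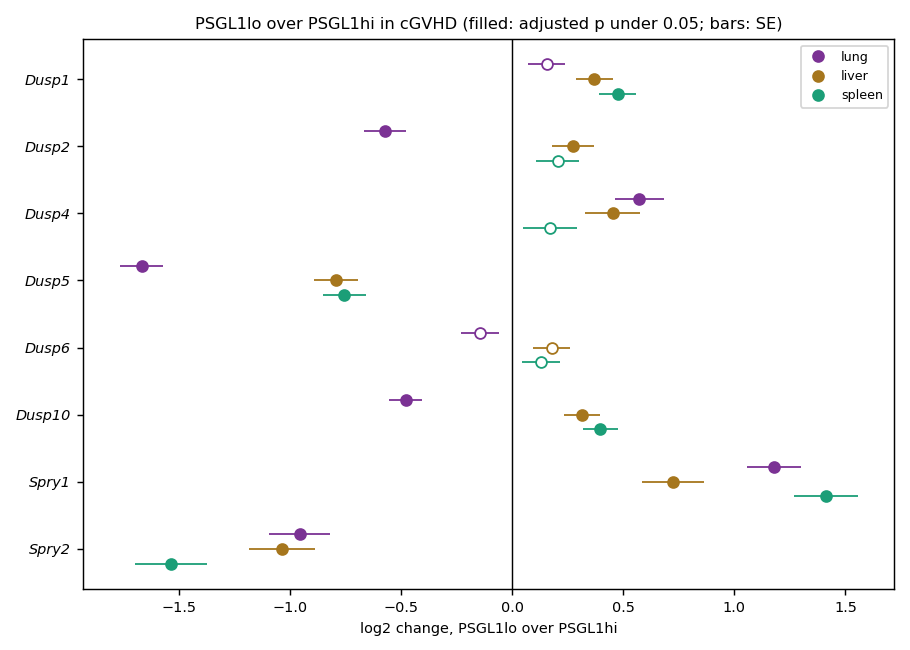
Log2 change of PSGL1lo over PSGL1hi (x axis) for each gene (y axis) in lung, liver and spleen of cGVHD recipients; points are edgeR estimates from 2 libraries a group, bars are standard errors, and filled points have an adjusted p under 0.05. Dusp2 and Dusp10 lie left of 0 in lung and right of 0 in liver and spleen, and Dusp5 lies farther left in lung (−1.67) than in liver (−0.79) or spleen (−0.76).

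Counting the tissue differences together, 3 of the 8 genes (Dusp2, Dusp5 and Dusp10) had a lower PSGL1lo effect in lung than in spleen, where 16.6% of all genes differed (5.51% higher and 11.1% lower). The same 3 had a lower one in lung than in liver, where 5.97% of all genes differed (2.08% higher and 3.89% lower). These comparisons share the lung libraries. Between lung and spleen the count was 6 (2 higher and 4 lower) when weakly expressed genes were kept in. There 893 genes had a higher and 1680 a lower effect of 18752 tested. Without the second lung PSGL1lo library more of the 8 genes, but fewer of all genes, differed. Of the 8 genes, Spry1 alone had a liver effect that differed from the spleen effect, and it was lower; 6.84% of all genes differed (2.64% higher and 4.2% lower). Immediate early and stress genes moved with these differences. Of 22 such genes, 2 had a higher and 13 a lower PSGL1lo effect in lung than in spleen (median of −0.51 on the log2 scale, against −0.02 over all genes), and 2 a higher and 11 a lower one in lung than in liver (median of −0.50, against −0.01). Fosb, a partner of Jun in the AP-1 factor, averaged 262 ± 52 CPM in lung PSGL1lo and 454 ± 19 CPM in lung PSGL1hi libraries (SD, n = 2 each), and its PSGL1lo effect was lower in lung than in liver by a log2 value of −1.36 ± 0.18 (adjusted p = 6.13e-05). Atf3, a stress-induced factor, went the other way against liver alone, with a log2 difference between lung and liver of 0.96 ± 0.24 (adjusted p = 0.0173), at 49.9 ± 7.4 CPM in lung PSGL1lo and 138 ± 0.22 CPM in lung PSGL1hi libraries. Between lung and spleen the Atf3 difference was −1.55 ± 0.17 (adjusted p = 1.79e-06) and that of Nr4a3 −1.42 ± 0.22 (adjusted p = 0.000126). There Ier3 went the other way, with 1.39 ± 0.26 (adjusted p = 0.000632). Ier5, an immediate early gene, averaged 241 ± 22 CPM in lung PSGL1lo and 368 ± 15 CPM in lung PSGL1hi libraries, with a log2 difference between lung and liver of −0.93 ± 0.10 (adjusted p = 5.77e-06). The part of these genes in the differences of Dusp2, Dusp5 and Dusp10 was not tested.

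Markers of other lymphocytes also differed between the sorted fractions. Summed NK cell markers (Ncr1, Klrb1c and Klrk1) were 62.2 to 70.4 CPM in lung PSGL1lo against 188 to 206 CPM in lung PSGL1hi libraries. They were 40.9 to 41.3 CPM in liver PSGL1lo against 145 CPM in both liver PSGL1hi libraries, and 8.57 to 11.6 CPM in spleen PSGL1lo against 50.1 to 54.5 CPM in spleen PSGL1hi libraries. Ncr1, which encodes an activating receptor of NK cells, was at 0 in both lung and both spleen PSGL1lo libraries and was detected in each other group. Only 2 of the 3 markers had enough counts to be tested, and the sums do not show how many NK cells the sorts held. Summed Cd8a and Cd8b1 were 12.1 to 12.4 against 28.5 to 30.6 CPM in lung PSGL1lo and PSGL1hi libraries, 28.0 to 31.5 against 141 to 142 CPM in those of liver and 11.8 to 12.3 against 77.5 to 77.6 CPM in those of spleen. Markers of B and plasma cells (Ms4a1, Cd79a, Cd79b, Cd22 and Jchain) summed to 12.2 to 17.3 against 8.13 to 9.09 CPM in lung PSGL1lo and PSGL1hi libraries, 7.36 to 8.30 against 3.52 to 3.86 CPM in those of liver and 19.0 to 20.0 against 48.5 to 54.5 CPM in those of spleen. Of 5 tested genes of that list, 1 was higher and 0 lower in lung PSGL1lo cells (median log2 change of −0.48). In liver 1 was higher and 0 lower (median −0.29), and in spleen 1 was higher and 2 lower (median −1.52). The sums thus do not stand for all of these genes. Dusp5 and Spry2 were higher in PSGL1hi libraries of each tissue, and the part that such cells have in these results was not tested.

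Among the genes of the pathway that the feedback acts on, Rasgrp2 and Rasa3 had the largest changes of those that passed the test in each tissue. Rasgrp2, which loads Ras-family GTPases such as Rap1 with GTP, averaged 26.3 ± 5.1 CPM in lung PSGL1lo against 109 ± 18 CPM in lung PSGL1hi libraries, 26.7 ± 0.12 against 92.2 ± 0.28 CPM in those of liver, and 44.9 ± 3.8 against 123 ± 5.0 CPM in spleen (SD, n = 2 each). Its log2 changes were −2.05 ± 0.12, −1.78 ± 0.11 and −1.46 ± 0.11 (adjusted p = 1.76e-11, 2.48e-10 and 3.56e-09). Rasa3, a GTPase-activating protein that turns Ras-family proteins off, averaged 214 ± 30 against 433 ± 54 CPM in lung, 153 ± 14 against 299 ± 6.8 CPM in those of liver, and 282 ± 3.4 against 504 ± 2.1 CPM in spleen. It fell by 1.02 ± 0.09, 0.96 ± 0.09 and 0.84 ± 0.09 on the log2 scale (adjusted p = 1.46e-08, 8.5e-08 and 3.55e-07). Of the 32 Ras-ERK, JNK and p38 pathway genes, 5 were higher and 9 lower in lung PSGL1lo cells (median log2 change of −0.10, against −0.03 over all genes). In liver 2 were higher and 5 lower (median −0.04, against −0.02), and in spleen 13 were higher and 4 lower (median 0.19, against 0).

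Of 18 other Dusp, Spry and Spred genes, 17 were tested. In lung PSGL1lo cells 3 were higher and 4 lower (median log2 change of 0.01, against −0.03 over all genes), in liver 2 and 2 (median −0.06, against −0.02) and in spleen 2 and 1 (median 0.12, against 0). Dusp14, a small phosphatase that lowers T cell receptor signalling, averaged 72.4 ± 19 against 28.5 ± 2.4 CPM in lung PSGL1lo and PSGL1hi libraries, 24.5 ± 0.45 against 12.2 ± 1.3 CPM in those of liver and 21.6 ± 0.32 against 13.4 ± 0.14 CPM in those of spleen. It rose by 1.35 ± 0.14, 1.002 ± 0.15 and 0.69 ± 0.15 on the log2 scale (adjusted p = 8.21e-08, 3.07e-05 and 0.00154). Dusp3, a small phosphatase of ERK and JNK, fell by 1.35 ± 0.19 in liver, at 3.48 ± 0.55 against 8.80 ± 0.17 CPM (adjusted p = 2.02e-05), and by 0.96 ± 0.19 in spleen, at 6.22 ± 1.7 against 12.2 ± 0.91 CPM (adjusted p = 0.00047).

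Immediate early genes moved in both directions in each tissue. In lung PSGL1lo cells 2 of the 22 were higher and 12 lower (median log2 change of −0.28, against −0.03 over all genes). In liver 7 were higher and 4 lower (median 0.16, against −0.02), and in spleen 8 were higher and 2 lower (median 0.22, against 0). Egr1, a zinc finger factor induced by ERK, averaged 121 ± 0.77 CPM in spleen PSGL1lo and 57.5 ± 4.2 CPM in spleen PSGL1hi libraries, and rose by 1.07 ± 0.14 (adjusted p = 6.09e-06). Ier3, an immediate early gene, fell by 1.66 ± 0.19 in spleen, at 5.76 ± 1.0 against 18.1 ± 0.99 CPM (adjusted p = 1.01e-06), and by 1.05 ± 0.17 in liver, at 9.73 ± 0.66 against 20.2 ± 2.5 CPM (adjusted p = 8.35e-05). Atf3 fell by 2.44 ± 0.20 in liver, at 1.75 ± 0.81 against 8.94 ± 0.95 CPM (adjusted p = 1.23e-08), and by 1.47 ± 0.12 in lung (adjusted p = 2.8e-09). Egr2, which restrains T cell activation, averaged 49.4 ± 7.7 CPM in lung PSGL1lo and 18.3 ± 0.052 CPM in lung PSGL1hi libraries and rose by 1.43 ± 0.10 (adjusted p = 3.44e-10), and 114 ± 8.3 against 64.6 ± 2.2 CPM in liver, a rise of 0.82 ± 0.09 (adjusted p = 6.28e-07). Fosl2, a Fos-related AP-1 subunit, averaged 264 ± 27 CPM in lung PSGL1lo and 543 ± 67 CPM in lung PSGL1hi libraries and fell by 1.04 ± 0.10 (adjusted p = 2.07e-08).

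The second comparison sets lung against liver CD4+ T cells of cGVHD recipients, which lie within 1 library series by their library numbers. All 8 genes differed in both fractions. Dusp4, Dusp5, Dusp10, Spry1, Spry2 and Dusp1 were higher in lung, and Dusp6 was lower, in PSGL1lo and in PSGL1hi cells. In PSGL1lo cells 6 were higher and 2 lower in lung, with a median log2 change of 1.23 against 0.00 over all genes, of which 39.9% differed (19.6% higher and 20.4% lower). In PSGL1hi cells 7 were higher and 1 lower, with a median of 1.37 against 0.00, and 38.4% of all genes differed (20.1% higher and 18.3% lower). The PSGL1lo and PSGL1hi values come from separate libraries.

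Of the ERK phosphatases, Dusp5 averaged 223 ± 19 CPM in lung PSGL1lo against 72.6 ± 3.5 CPM in liver PSGL1lo libraries, and 707 ± 4.4 CPM in lung PSGL1hi against 126 ± 9.4 CPM in liver PSGL1hi libraries (SD, n = 2 each). It rose by 1.62 ± 0.10 in PSGL1lo and 2.49 ± 0.10 in PSGL1hi cells on the log2 scale (adjusted p = 3.19e-11 and 2.49e-14). Dusp6 averaged 96.1 ± 15 against 196 ± 2.0 CPM in PSGL1lo and 106 ± 4.8 against 173 ± 4.5 CPM in PSGL1hi cells of lung and liver. It fell by 1.03 ± 0.08 and 0.70 ± 0.08 (adjusted p = 4.08e-09 and 9.02e-07), so that the nuclear and the cytoplasmic ERK phosphatase moved in opposite directions between these tissues.

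The inducible nuclear phosphatases differed among themselves. Dusp4 averaged 175 ± 35 CPM in lung PSGL1lo against 33.3 ± 0.42 CPM in liver PSGL1lo libraries, and 118 ± 17 against 24.3 ± 1.9 CPM in PSGL1hi libraries, and rose by 2.39 ± 0.12 and 2.27 ± 0.12 on the log2 scale (adjusted p = 1.11e-12 and 2.27e-12). Dusp1 averaged 1592 ± 234 against 816 ± 27 CPM in PSGL1lo and 1429 ± 65 against 631 ± 23 CPM in PSGL1hi cells of lung and liver, a rise of 0.96 ± 0.08 and 1.18 ± 0.08 (adjusted p = 8.4e-09 and 3.17e-10). Dusp2 averaged 379 ± 68 against 469 ± 1.1 CPM in PSGL1lo and 562 ± 29 against 387 ± 0.95 CPM in PSGL1hi cells of lung and liver. It fell by 0.31 ± 0.09 in PSGL1lo (adjusted p = 0.0126) and rose by 0.54 ± 0.09 in PSGL1hi cells (adjusted p = 0.000111). The fall was lost without the first lung PSGL1lo library (−0.15, adjusted p = 0.274) and with only the groups compared (−0.30, adjusted p = 0.0726).

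Dusp10, the JNK and p38 phosphatase, averaged 137 ± 11 CPM in lung PSGL1lo against 55.2 ± 0.64 CPM in liver PSGL1lo libraries, and 191 ± 7.8 against 44.4 ± 1.7 CPM in PSGL1hi libraries. It rose by 1.31 ± 0.08 and 2.11 ± 0.08 on the log2 scale (adjusted p = 2.03e-11 and 1.18e-14). Spry1 averaged 79.5 ± 11 against 19.6 ± 2.2 CPM in PSGL1lo and 35.2 ± 4.4 against 11.9 ± 0.39 CPM in PSGL1hi cells of lung and liver, a rise of 2.02 ± 0.13 and 1.56 ± 0.14 (adjusted p = 5.4e-11 and 7.27e-09). Spry2 averaged 27.6 ± 7.2 against 12.4 ± 1.4 CPM in PSGL1lo and 53.6 ± 7.2 against 25.6 ± 1.3 CPM in PSGL1hi cells, a rise of 1.14 ± 0.15 and 1.07 ± 0.14 (adjusted p = 2.68e-06 and 3.01e-06). Both Sprouty genes were thus higher in lung whichever fraction held more of them.

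**Figure D3:**
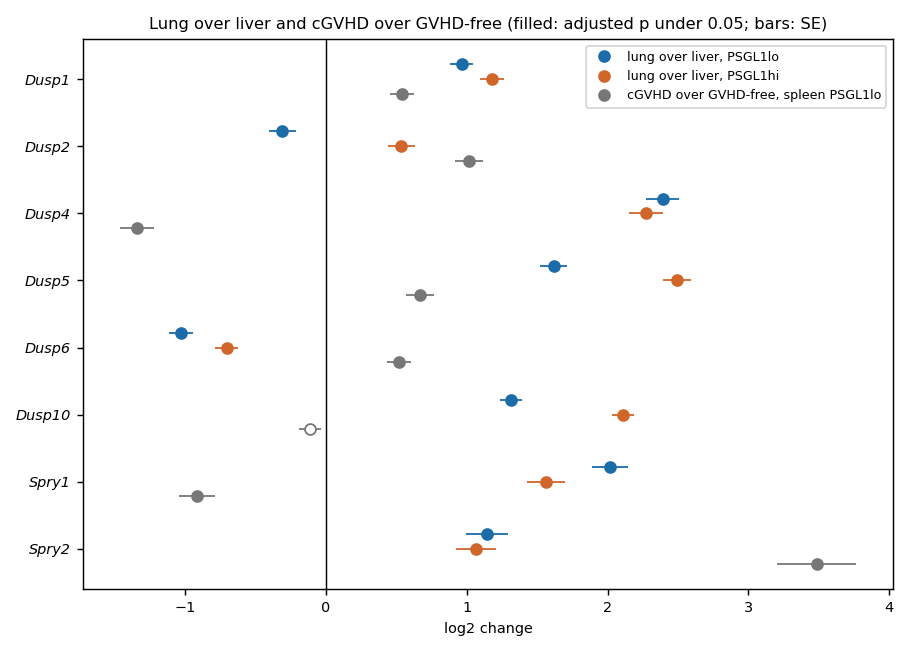
Log2 change of lung over liver in PSGL1lo and in PSGL1hi cells, and of cGVHD over GVHD-free in spleen PSGL1lo cells (x axis), for each gene (y axis); points are edgeR estimates from 2 libraries a group, bars are standard errors, and filled points have an adjusted p under 0.05. Dusp4 and Spry1 lie right of 0 for lung over liver and left of 0 for cGVHD over GVHD-free, and the Spry2 point for cGVHD (3.48) lies farthest right.

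Lung libraries also differed from liver libraries in genes of stress and of other cells. The summed level of the 22 immediate early and stress genes was 9461 to 10713 CPM in lung PSGL1lo against 5659 to 5924 CPM in liver PSGL1lo libraries, and 12696 to 13200 against 4464 to 4650 CPM in PSGL1hi libraries. Hspa1a, a heat shock gene, averaged 1134 ± 83 against 3.62 ± 0.11 CPM in PSGL1lo cells of lung and liver, and its near-identical copy Hspa1b 1543 ± 116 against 8.91 ± 1.6 CPM; reads of these copies may have been split between them. Of the 22 genes, 11 were higher and 6 lower in lung PSGL1lo cells (median log2 change of 0.45, against 0.00 over all genes) and 15 were higher and 3 lower in lung PSGL1hi cells (median 0.60, against 0.00). The 8 myeloid markers (Lyz2, Csf1r, Cd14, Itgam, C1qa, C1qb, Adgre1 and S100a8) summed to 747 to 1134 CPM in lung PSGL1lo against 19.0 to 63.3 CPM in liver PSGL1lo libraries, and to 663 to 826 against 21.0 to 45.6 CPM in PSGL1hi libraries. The 4 lung epithelial markers summed to 4.24 to 83.5 CPM in lung PSGL1lo and to 33.8 to 41.9 CPM in lung PSGL1hi libraries, and all 4 were at 0 in liver PSGL1lo libraries. The 4 hepatocyte markers (Alb, Apoa1, Ttr and Serpina1a) were all at 0 in lung PSGL1lo libraries and summed to 36.2 to 43.7 CPM in liver PSGL1lo libraries; they summed to 0 to 0.0432 CPM in lung PSGL1hi against 14.7 to 18.3 CPM in liver PSGL1hi libraries. Summed Cd8a and Cd8b1 were lower in lung than in liver in both fractions, at 12.1 to 12.4 against 28.0 to 31.5 CPM in PSGL1lo and 28.5 to 30.6 against 141 to 142 CPM in PSGL1hi libraries. The part that stress or RNA of these cells has in the levels of the 8 genes was not tested.

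**Figure D4:**
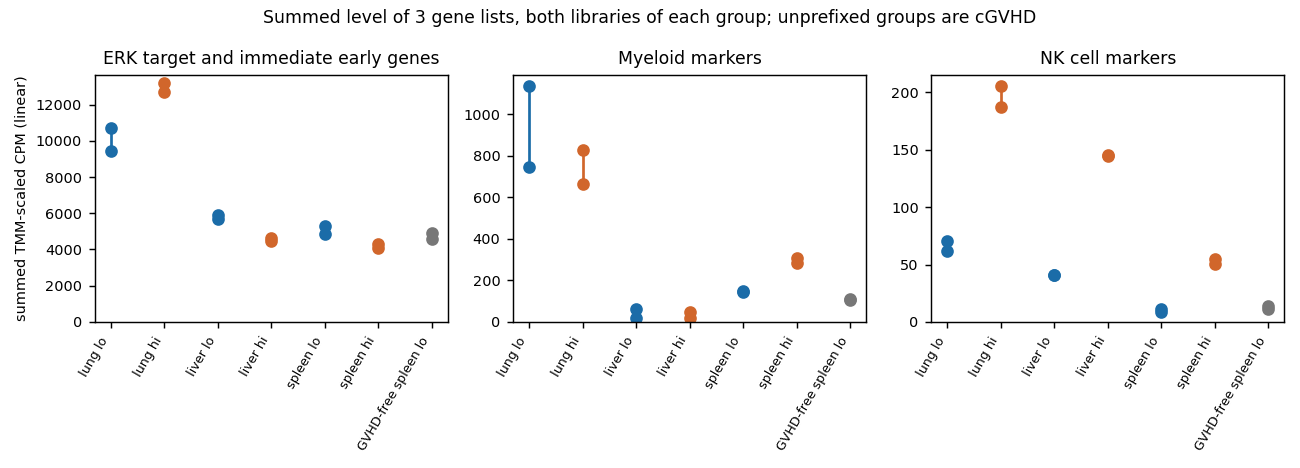
Summed TMM-scaled CPM on linear axes that start at 0, for ERK target and immediate early genes (with Hspa1a and Hspa1b), myeloid markers and NK cell markers; the joined points are the 2 libraries of a group, with PSGL1lo in blue, PSGL1hi in orange and GVHD-free in grey. The sums of immediate early genes and of myeloid markers are highest in the lung groups, and that of NK cell markers is higher in PSGL1hi than in PSGL1lo libraries of each tissue. Hspa1a and Hspa1b averaged 1134 and 1543 CPM of the first sum in lung PSGL1lo libraries.

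Of the other Dusp, Spry and Spred genes, 6 were higher and 2 lower in lung PSGL1lo cells (median log2 change of 0.27, against 0.00 over all genes) and 6 and 2 in lung PSGL1hi cells (median −0.08, against 0.00). Dusp8, a phosphatase of JNK and p38, averaged 6.12 ± 0.45 CPM in lung PSGL1lo against 0.431 ± 0.16 CPM in liver PSGL1lo libraries (log2 change of 3.87 ± 0.36, adjusted p = 2.12e-08), and 13.8 ± 2.4 against 0.298 ± 0.040 CPM in PSGL1hi libraries (5.49 ± 0.37, adjusted p = 1.18e-10). Dusp16, also a JNK phosphatase, averaged 49.8 ± 3.4 CPM in lung PSGL1hi against 9.84 ± 0.70 CPM in liver PSGL1hi libraries, a rise of 2.33 ± 0.12 (adjusted p = 1.66e-12). Braf, a kinase upstream of ERK, averaged 92.9 ± 9.0 against 58.6 ± 9.8 CPM in PSGL1lo cells (log2 change of 0.67 ± 0.10, adjusted p = 2.2e-05) and 94.4 ± 7.0 against 57.7 ± 5.6 CPM in PSGL1hi cells of lung and liver (0.71 ± 0.10, adjusted p = 1.16e-05). Of the 32 pathway genes, 9 were higher and 9 lower in lung PSGL1lo cells (median −0.01, against 0.00) and 9 were higher and 5 lower in lung PSGL1hi cells (median 0.09, against 0.00).

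The third comparison sets cGVHD against GVHD-free recipients in spleen PSGL1lo cells. It shares the cGVHD spleen PSGL1lo libraries with the comparison of fractions in spleen. Of the 8 genes Spry2 had the largest log2 change, being 11.1 times as high in cGVHD as in GVHD-free cells, where it had few counts. Dusp2 was 2.02 times as high in cGVHD, and Dusp4 and Spry1 were lower. Of the 8 genes 5 were higher and 2 lower in cGVHD, with a median log2 change of 0.53 against 0.01 over all genes, of which 27.5% changed (14.7% higher and 12.8% lower).

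Among the ERK phosphatases, Dusp5 had 173 and 137 CPM in cGVHD libraries, against 93.9 and 100.5 CPM in GVHD-free libraries, and Dusp6 had 186 and 173 CPM against 122 and 128 CPM. The groups did not overlap for either gene. The rises were 0.67 ± 0.10 for Dusp5 and 0.52 ± 0.09 for Dusp6 on the log2 scale (adjusted p = 1.96e-05 and 6.94e-05). Of the inducible nuclear phosphatases, Dusp2 had 362 and 365 CPM in cGVHD libraries against 175 and 184 CPM in GVHD-free libraries, and rose by 1.02 ± 0.10 (adjusted p = 4.21e-08). Dusp1 had 958 and 896 CPM in cGVHD libraries against 629 and 645 CPM in GVHD-free libraries, and rose by 0.54 ± 0.08 (adjusted p = 3.2e-05). Dusp4 moved the other way. It had 54.3 and 50.7 CPM in cGVHD libraries against 137 and 129 CPM in GVHD-free libraries, and fell by 1.34 ± 0.12 (adjusted p = 1.2e-08).

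Dusp10 had 109.5 and 103 CPM in cGVHD libraries against 111 and 118 CPM in GVHD-free libraries. The groups lay side by side, and the log2 change of −0.11 ± 0.08 did not pass the test (adjusted p = 0.326). Spry1 had 33.9 and 26.8 CPM in cGVHD libraries against 53.8 and 60.4 CPM in GVHD-free libraries, and fell by 0.91 ± 0.13 (adjusted p = 1.19e-05). Spry2 had 10.7 and 10.8 CPM in cGVHD libraries against 0.792 and 1.15 CPM in GVHD-free libraries, which are 13 and 16 counts. It rose by 3.48 ± 0.28 on the log2 scale (adjusted p = 2.4e-09), and the value lay between 3.23 and 3.76 when any 1 of the 4 libraries was left out. The level that a count of 0 would still allow, 3 counts, is 0.0859 to 0.223 CPM over the libraries and covers counting error only. The GVHD-free group thus stood above that limit for Spry2.

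The same 5 markers of B and plasma cells summed to 19.0 to 20.0 CPM in cGVHD against 64.8 to 66.5 CPM in GVHD-free libraries. Myeloid markers summed to 143 to 151 CPM in cGVHD and 108 to 110.1 CPM in GVHD-free libraries, though of the 8 markers 2 were higher and 2 lower in cGVHD. Immediate early and stress genes summed to 4846 to 5312 and 4602 to 4934 CPM. Of those 22 genes 6 were higher and 6 lower in cGVHD (median log2 change of 0.09, against 0.01 over all genes). Atf3 averaged 53.2 ± 2.2 CPM in cGVHD and 110 ± 5.5 CPM in GVHD-free libraries and fell by 1.05 ± 0.12 (adjusted p = 6.05e-07), whereas Hspa1a averaged 10.3 ± 0.23 and 4.45 ± 1.0 CPM and rose by 1.19 ± 0.15 (adjusted p = 2.67e-06). The part of these cells and of stress in the values of the 8 genes was not tested.

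Of the other Dusp, Spry and Spred genes 6 were higher and 3 lower in cGVHD (median log2 change of 0.04, against 0.01 over all genes), among them Dusp14 at 21.6 ± 0.32 against 10.3 ± 1.5 CPM, a rise of 1.06 ± 0.17 (adjusted p = 3.56e-05). Of the 32 pathway genes 7 were higher and 5 lower (median 0.02, against 0.01). Mapk11, which encodes a p38 kinase, averaged 13.5 ± 2.4 CPM in cGVHD and 30.2 ± 0.93 CPM in GVHD-free libraries and fell by 1.17 ± 0.16 (adjusted p = 8.79e-06). Rasgrp1, the exchange factor that links the T cell receptor to Ras, averaged 423 ± 2.2 and 310 ± 0.32 CPM and rose by 0.45 ± 0.07 (adjusted p = 7.52e-05).

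Lung and liver were also set against spleen, where tissue cannot be told apart from library series. In PSGL1lo cells 7 of the 8 genes differed between lung and spleen (6 higher and 1 lower in lung), against 60% of all genes (29.6% higher and 30.4% lower). Between liver and spleen 5 differed (1 higher and 4 lower in liver), against 57.7% of all genes (28.7% higher and 29% lower). In PSGL1hi cells all 8 differed between lung and spleen (7 higher and 1 lower in lung), against 61.8% of all genes (30.7% higher and 31% lower). Between liver and spleen 4 differed (1 higher and 3 lower in liver), against 57.9% of all genes (28.5% higher and 29.4% lower). Lung minus spleen values reached 1.73 ± 0.12 for Dusp4 in PSGL1lo cells (adjusted p = 5.12e-11) and 1.63 ± 0.14 for Spry1 in PSGL1hi cells (adjusted p = 1.36e-09). Dusp6 was lower in lung than in spleen, with log2 changes of −0.90 ± 0.09 in PSGL1lo and −0.63 ± 0.08 in PSGL1hi cells (adjusted p = 1.06e-08 and 1.46e-06). Dusp5 and Dusp10 were lower in liver than in spleen, with log2 changes of −1.09 ± 0.10 and −0.94 ± 0.08 in PSGL1lo cells (adjusted p = 5.93e-09 and 1.82e-09).

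Over the 7 groups the genes differed in how far their levels ranged. The log2 range of the group means was 5.68 for Spry2, 3.28 for Dusp5, 2.83 for Dusp4, 2.79 for Spry1, 2.11 for Dusp10, 1.65 for Dusp2, 1.33 for Dusp1 and 1.03 for Dusp6, and the median of the 8 was 2.45, against 1.17 over all genes tested. Within the 6 cGVHD groups the range of Spry2 was 2.30 and that of Dusp2 0.84, against a median of 1.04 over all genes; the other 6 ranges were the same. The order of the groups differed by gene. Lung PSGL1hi was highest for Dusp2, Dusp5, Dusp10 and Spry2, lung PSGL1lo was highest for Dusp1, Dusp4 and Spry1, and liver PSGL1lo was highest for Dusp6, for which both lung groups were the lowest. Libraries of neighbouring groups overlapped for 6 of the 8 genes. The share of all genes with such overlaps was not computed, so this describes the 8 genes alone. For Dusp1 the overlaps were lung PSGL1lo with lung PSGL1hi, and the lowest 3 groups with each other. For Dusp2, lung PSGL1lo overlapped liver PSGL1hi above it and spleen PSGL1lo below it. Dusp4 overlapped between GVHD-free spleen and lung PSGL1hi, and Dusp6 between spleen PSGL1lo and liver PSGL1hi and between the lung groups. Spry1 overlapped between lung PSGL1hi and spleen PSGL1lo and between liver PSGL1hi and spleen PSGL1hi. For Spry2, lung PSGL1lo overlapped spleen PSGL1hi above it and liver PSGL1hi below it. Dusp5 and Dusp10 showed no overlap between neighbours.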

How the data were processed

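Per the labels' protocols, RNA of the sorted cells was isolated with a Qiagen RNeasy kit and sequencing libraries were built from mRNA with a Kapa HyperPrep kit. The deposited values are raw read counts per gene. The submitters' processing notes name TopHat2 2.0.8, HTSeq and the mm9 assembly as what the authors used. The sources used here do not give the annotation, the strand setting or any read filter. Libraries held 13222005 to 33532595 counts. Genes with enough counts by edgeR's filterByExpr were kept (13780 of 25017), scaled by TMM, and tested in 1 quasi-likelihood fit over all 7 groups with Benjamini-Hochberg adjustment (R 4.3.3, edgeR 4.0.16); the 7 residual degrees of freedom come from pairs of libraries. A gene was called at an adjusted p under 0.05. Differences between tissues in the PSGL1lo effect were contrasts of the same fit. The test gives no standard error. Each SE was derived as the absolute log2 change divided by the square root of the test's F statistic. The steps were tested on simulated data for the cGVHD against GVHD-free comparison alone, with the same spread for all genes. They called 34.6% of simulated log2 changes of 0.5, 86.4% of those of 1 and 86.1% of those of 2. Of all calls, 5.52% were false. Differences between tissues were not simulated.

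The 8 genes and all gene lists were chosen with earlier results of these data known. Named beside the 8 genes are Selplg, up to 3 called genes of each pathway list with the largest changes per comparison, and the 3 genes most alike each of the 8. Alternatives were RLE scaling, no filter, DESeq2 1.42.0, only the groups compared, a replicate block and leaving out each library. Promoter sequences came from a RefSeq table of another build than the counts, so their coordinates hold for GRCm38.p6 alone. Overlaps of genes were read by name from an annotation of that assembly. Where 1 member of a pair of libraries was left out, the lone library was assumed to vary like the other groups. Genes below the filter and Trac, which was not found under that name, were not analysed here. Counts of 2 gene names that occur more than once were kept as separate entries. A gene of the B and plasma cell list is not reported here.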

Additional observations from a re-analysis of the deposited data

Results flagged for a closer look

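A test of the difference between tissues in the PSGL1lo effect (the log2 change of PSGL1lo over PSGL1hi cells, edgeR's quasi-likelihood test, Benjamini-Hochberg adjusted) picked out 4 of the 8 genes: 3 for lung minus spleen, where 16.6% of all genes differed, the same 3 for lung minus liver, where 5.97% did, and 1 for liver minus spleen, where 6.84% did. Dusp10 differed between lung and spleen by −0.88 ± 0.11 (adjusted p = 8.14e-06) and between lung and liver by −0.79 ± 0.11 (adjusted p = 7.49e-05). PSGL1lo cells had less of it than PSGL1hi cells in lung and more in liver and spleen. Dusp2 differed between lung and spleen by −0.78 ± 0.13 (adjusted p = 0.000345) and between lung and liver by −0.85 ± 0.13 (adjusted p = 0.000283). PSGL1lo cells had less of it in lung, and the log2 change was 0.28 in liver and 0.20 in spleen, the value in spleen not passing the test. Dusp5 was lower in PSGL1lo cells everywhere, and more so in lung, by −0.91 ± 0.13 against spleen (adjusted p = 6.32e-05) and −0.87 ± 0.14 against liver (adjusted p = 0.000246). Spry1 was higher in PSGL1lo cells everywhere, and less so in liver than in spleen, by −0.69 ± 0.20 (adjusted p = 0.0417), a call that depended on single libraries. Contrasts of lung with spleen and with liver share the lung libraries, and for those with spleen, tissue cannot be told apart from library series.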

How the results depend on the processing

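The 8 genes in 13 comparisons gave 104 results and, over all alternatives, 1032 values. Of these, 981 kept their direction and side of the threshold, 16 lost the call, 20 gained it and 15 changed sign, all of the last for uncalled genes with 1 library left out. The PSGL1lo effect in lung against spleen differed for 6 of the 8 genes with no filter on low counts, in place of 3. Of the 18752 genes then tested, 893 had a higher and 1680 a lower effect. Without the second lung PSGL1lo library, more of the 8 genes but fewer of all genes differed. The effect in liver against spleen differed for 0 genes by edgeR with only the groups compared, in place of 1, and for 0 to 1 with 1 library left out. The fractions in liver differed for 4 to 6 genes with 1 library left out, in place of 7. The cause was not tested. Values that changed sign with 1 library left out were, for liver minus spleen, Dusp1 (−0.18 to 0.00622), Dusp2 (−0.0533 to 0.22), Dusp5 (−0.19 to 0.13) and Dusp6 (−0.00275 to 0.0948). For lung minus liver they were Dusp4 (−0.10 to 0.34) and Spry2 (−0.22 to 0.35). They were Dusp2 in PSGL1lo lung over spleen (−0.13 to 0.24), and Dusp1 (−0.19 to 0.00144) and Spry1 (−0.0156 to 0.11) in PSGL1hi liver over spleen. Over all genes, 113 of 129 recomputed counts of calls lay within 1.5 times of the first. The liver minus spleen count was 943, 591 with only the groups compared and 331 to 2497 with 1 library left out. The lung minus liver count was 823, against 475 to 1320, the lung minus spleen count 2282, against 1517 without the second spleen PSGL1hi library, and the count of the fractions in liver 2866, against 1552 without the first and 1643 without the second liver PSGL1hi library. Whether replicate numbers pair the libraries is not stated. In liver and lung, the column names of same-numbered libraries of both fractions share a letter, whose meaning is not given. Deviations of same-numbered libraries correlated between −0.06 and 0.08 over the 21 pairs of groups. The values were highest for the fractions of lung (0.0838) and of liver (0.0704). Low values over all tested genes do not show that the libraries are unpaired. With the replicate block the counts of called genes were the same, 7 for cGVHD and, for the fractions, 6 in lung, 7 in liver and 5 in spleen. The block fits a shift shared by all groups, so it does not test pairing within a tissue. Spry2 in GVHD-free cells rests on 13 and 16 counts, so its fold is the least precise.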

Other observations

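For each of the 8 genes the tested genes most alike in log2 level over the 14 libraries are given as a description; these points share libraries, depth, tissue and library series. Dusp10 was most like Cxcr4, a chemokine receptor (Pearson r = 0.987), Tgif2 (0.979) and Dusp8 (0.974). Over the 8 liver and lung libraries alone the value for Cxcr4 was 0.998, and over the 6 spleen libraries 0.809. For Dusp8 these values were 0.992 and 0.576. Spry2 was most like Gas7 (0.991), Il18r1, a subunit of the interleukin 18 receptor (0.986), and Ggh (0.982). Spry1 was most like Id3, an inhibitor of E-protein transcription factors (0.967), Sesn3 (0.966) and Prnp (0.959). Within the 6 spleen libraries Spry1 and Id3 correlated at 0.992, and within the 8 liver and lung libraries at 0.986.

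Dusp4 was most like Il1b, the interleukin 1 beta gene (0.956), Cdip1 (0.930) and Cybb, a subunit of the phagocyte oxidase (0.920). Il1b and Cybb are expressed mainly by myeloid cells, and the 8 myeloid markers summed to 747 to 1134 CPM in lung PSGL1lo libraries, 19.0 to 63.3 CPM in liver PSGL1lo libraries and 143 to 151 CPM in cGVHD spleen PSGL1lo libraries. In GVHD-free spleen libraries they summed to 108 to 110.1 CPM, while Dusp4 was higher there than in cGVHD spleen libraries. Of the 8 markers 2 were higher and 2 lower in cGVHD than in GVHD-free spleen PSGL1lo libraries. The part of myeloid RNA in the level of Dusp4 was not tested. Dusp5 was most like Rnf125 (0.978), Hilpda (0.968) and Tmem64 (0.962), and Dusp2 like Rnf19b (0.976), Mocos (0.936) and Rpl29 (0.935). Dusp1 was most like Ramp3 (0.960), Inhba (0.956) and Tob2 (0.946), and Dusp6 like Cenpj (0.972), Pglyrp2 (0.972) and H2-T23 (0.964). Dusp1 and Inhba correlated at 0.671 within the 6 spleen libraries and 0.985 within the 8 liver and lung libraries. For Dusp2 and Rpl29 these values were 0.954 and 0.743.

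Among the 8 genes themselves, Dusp4 and Spry1 were the most alike pair (r = 0.901 over the 14 libraries), and Dusp4 and Dusp6 the most opposed (−0.91). Dusp5 and Spry2 correlated at 0.644 over all libraries, 0.951 within spleen and 0.928 within liver and lung. Spry1 and Spry2 correlated at −0.93 within spleen and 0.347 within liver and lung; the value in liver and lung pools both fractions of both tissues.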
